A study of Mus musculus with 4 samples.

Results

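The genes described here belong to the pathway that makes, senses and breaks down prostaglandins and leukotrienes, lipid messengers derived from arachidonic acid. They were chosen by symbol and are 10 of the 32285 genes counted: Ptgs1, Ptgs2, Ptges, Hpgds, Hpgd, Ptger4, Alox5, Alox5ap, Ltc4s and Lta4h. Although the set is named for synthesis, it holds a gene for breakdown (Hpgd) and a gene for a receptor (Ptger4). Measured were unique molecular identifiers (UMIs, each marking a captured RNA molecule) in single cells of adult mouse colon from C57/BL6J animals, in 2 batches with a gene expression library and a hashtag antibody library each. The study compared untreated wildtype mice, untreated mice lacking JUP (plakoglobin, a junction protein that links cadherins to the cytoskeleton), wildtype mice given DSS (dextran sulfate sodium, which damages the gut epithelium and brings on colitis) and JUP-KO mice given DSS. Viable cells of the 4 conditions were sorted as 1 pool per batch. The sources used here give no driver of the JUP deletion, no DSS schedule and no number of mice per batch.

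Hashtag names and the protocol did not pair the conditions in the same way. By their names, the tags Ctrl_WT, Ctrl_DSS, TG_WT and TG_DSS stand for untreated wildtype, wildtype with DSS, untreated JUP-KO and JUP-KO with DSS. By the antibody numbering in the protocol, Ctrl_DSS and TG_WT change places, while Ctrl_WT and TG_DSS mean the same in both readings. Groups are therefore called by tag name throughout. In colonocyte-like cells the Jup transcript was at 98.8 and 58.7 CPM (UMIs as counts per 1e+06 counts of the sum; batch 1, then batch 2) under Ctrl_WT, 23.4 and 12.0 under Ctrl_DSS, 105 and 125 under TG_WT, and 25.0 and 95.9 under TG_DSS. The sources used here do not say if the counted 3' end of Jup was deleted.

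After filtering, 7157 cells in batch 1 and 6472 in batch 2 were kept, with a median of 12301 and 7090.5 UMIs per cell. Cells with more than 1 tag (266 and 699) were set aside as doublets, 4541 and 2612 cells carried no tag, and 31 called barcodes occurred in both batches. Each cell was placed in a class only if at least 3 markers of that class stood above the level that 10% free RNA from empty droplets would give. A cell that also passed for a closely related class, such as tuft and goblet or macrophage and monocyte, went to the class with the larger share of its markers. Cells that passed for unrelated classes were set aside. The 10 genes were kept out of both the gate and the clustering, so their levels did not define the classes. This gave 79 and 43 tuft-like cells (chemosensory epithelial cells), 109 and 268 fibroblast-like cells, 742 and 816 neutrophil-like cells, 115 and 139 macrophage-like cells and 1888 and 1492 colonocyte-like cells (absorptive epithelium). Median depth ran from 2645 UMIs in neutrophil-like cells of batch 1 to 14136.5 in colonocyte-like cells of batch 1. Summed tuft markers made up 8407 and 7632 CPM of the tuft-like cells, although in batch 1 these also held 7867 CPM of goblet markers, against 604 CPM in batch 2. Their median mitochondrial share was 11.8% and 11% of UMIs, against 0.427% to 6.96% in the other 4 classes. The part of the goblet RNA and of RNA quality in the tuft values was not tested.

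As background, cyclooxygenases convert arachidonic acid, released from membranes by phospholipases, into prostaglandin H2, which dedicated synthases turn into prostaglandin E2, prostaglandin D2, prostacyclin or thromboxane. In the second arm, 5-lipoxygenase works with its activating protein to make leukotriene A4, which becomes either leukotriene B4, a neutrophil attractant, or the cysteinyl leukotriene C4. In the colon, prostaglandin E2 is known for supporting epithelial repair after injury, and tuft cells are known as an epithelial source of eicosanoids.

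The genes lie at separate places in the mouse genome (mm10, GENCODE M21 gene bounds). Of the cyclooxygenases, Ptgs1 lies at chr2:36230426-36252272 on the plus strand and Ptgs2 at chr1:150100031-150108227 on the plus strand. The prostaglandin synthases Ptges and Hpgds lie at chr2:30889471-30929863 and chr6:65117293-65144908, both on the minus strand. Hpgd lies at chr8:56294585-56321043 on the plus strand and Ptger4 at chr15:5206661-5244187 on the minus strand. In the leukotriene arm, Alox5 lies at chr6:116410077-116461178 and Ltc4s at chr11:50236461-50238616 on the minus strand, and Alox5ap at chr5:149264767-149288153 and Lta4h at chr10:93453411-93484875 on the plus strand. Ptges and Hpgd overlap other gene models on their own strand (Gm13400 and Gm45540), and Ptgs1, Hpgds, Ptger4, Alox5ap and Ltc4s overlap antisense models. The sources used here do not say if counting used strand, so reads from such overlaps cannot be assigned with certainty.

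Sequence around the start site was matched for 9 of the 10 genes, the exception being Alox5ap. Printed below are 250 bases before to 50 bases after the start (RefSeq, GRCm38.p6, read 5' to 3' on the gene's strand) for the 4 matched genes that were highest in tuft-like cells and for Ptgs2, the cyclooxygenase that was highest in neutrophil-like cells. Capitals mark the motifs found by an exact search on both strands for the GC box GGGCGG, the PU.1 core GAGGAAGT, the octamer ATGCAAAT, the E-box CACGTG, the TATA element TATAAA, the AP-1 site TGACTCA, the cyclic AMP response element TGACGTCA and the promoter element CCAAT.
Ptgs1 (chr2:36230176-36230475, plus strand): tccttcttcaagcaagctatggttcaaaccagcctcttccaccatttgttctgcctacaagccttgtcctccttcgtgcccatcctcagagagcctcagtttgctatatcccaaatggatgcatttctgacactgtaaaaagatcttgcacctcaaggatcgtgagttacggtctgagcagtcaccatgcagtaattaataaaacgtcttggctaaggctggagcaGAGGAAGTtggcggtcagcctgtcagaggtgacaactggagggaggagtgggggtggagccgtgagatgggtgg
Hpgds (chr6:65144681-65144980, minus strand): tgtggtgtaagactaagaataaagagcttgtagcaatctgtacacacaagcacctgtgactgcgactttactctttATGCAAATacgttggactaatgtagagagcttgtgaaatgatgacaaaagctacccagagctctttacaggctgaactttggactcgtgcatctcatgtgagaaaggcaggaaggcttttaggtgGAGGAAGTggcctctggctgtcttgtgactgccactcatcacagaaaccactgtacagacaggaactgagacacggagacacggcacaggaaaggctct
Alox5 (chr6:116461129-116461428, minus strand): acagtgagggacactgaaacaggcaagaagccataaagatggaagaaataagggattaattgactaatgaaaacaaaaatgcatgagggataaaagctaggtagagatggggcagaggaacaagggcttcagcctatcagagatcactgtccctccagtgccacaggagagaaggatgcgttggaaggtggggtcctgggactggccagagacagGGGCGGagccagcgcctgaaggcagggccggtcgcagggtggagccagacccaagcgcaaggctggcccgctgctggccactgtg
Ltc4s (chr11:50238483-50238782, minus strand): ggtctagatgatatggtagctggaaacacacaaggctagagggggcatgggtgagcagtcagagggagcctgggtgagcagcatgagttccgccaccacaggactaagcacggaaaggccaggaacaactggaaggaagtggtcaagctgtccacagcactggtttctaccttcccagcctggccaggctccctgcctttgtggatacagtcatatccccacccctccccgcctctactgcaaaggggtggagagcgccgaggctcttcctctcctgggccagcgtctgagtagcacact
Ptgs2 (chr1:150099781-150100080, plus strand): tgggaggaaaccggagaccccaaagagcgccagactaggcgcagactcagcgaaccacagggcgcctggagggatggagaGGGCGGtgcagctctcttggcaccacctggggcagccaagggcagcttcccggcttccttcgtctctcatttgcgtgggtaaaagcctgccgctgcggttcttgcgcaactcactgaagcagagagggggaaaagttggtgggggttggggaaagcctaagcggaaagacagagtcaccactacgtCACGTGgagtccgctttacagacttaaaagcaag

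Counted from the start site, the Ptgs1 window held the PU.1 core at position -24, and the Hpgds window held it at -49 together with an octamer at -174. Alox5 had a GC box at -35, Ptgs2 a GC box at -170 and an E-box at 16, and the Ltc4s window held none of the motifs searched. Among 32851 promoters of the same length, 3.2% held GAGGAAGT, 1.74% ATGCAAAT, 35.7% GGGCGG and 7.15% CACGTG, so the PU.1 core and the octamer were the rarer letters. These matches describe the sequence only.

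Tuft-like cells carried the constitutive cyclooxygenase Ptgs1, the prostaglandin D2 synthase Hpgds and the cysteinyl leukotriene genes Alox5, Alox5ap and Ltc4s together. Under the marker gate they held almost no inducible cyclooxygenase Ptgs2, which depended on how the class was made. Neutrophil-like cells carried Ptgs2 and Alox5ap. Fibroblast-like cells held the highest level of Ptges, the inducible prostaglandin E2 synthase, and colonocyte-like cells the highest level of Hpgd, which starts the breakdown of prostaglandins. Levels below are CPM of summed UMIs per class in batch 1 and batch 2, and fold changes come from edgeR's quasi-likelihood test over 14020 genes on those sums with a batch term. All 10 genes entered the test, and 73 of the 100 gene-by-class-pair tests passed an adjusted p of 0.05, between classes in which 27.2% to 51.8% of all genes passed. The number of independent animals behind the batches is not given. These p-values thus measure only spread left after the batch term, which may be technical, estimated in 1 fit over 29 sums of 15 classes. Each class sum pools all tags and untagged cells. Neutrophil-like cells were mostly under TG_DSS (603 and 520 cells), tagged fibroblast-like cells mostly under TG_WT (59 and 35), and colonocyte-like cells mostly untagged (1628 and 1245). Differences between classes therefore also hold differences in condition, which were not separated.

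**Figure D1:**
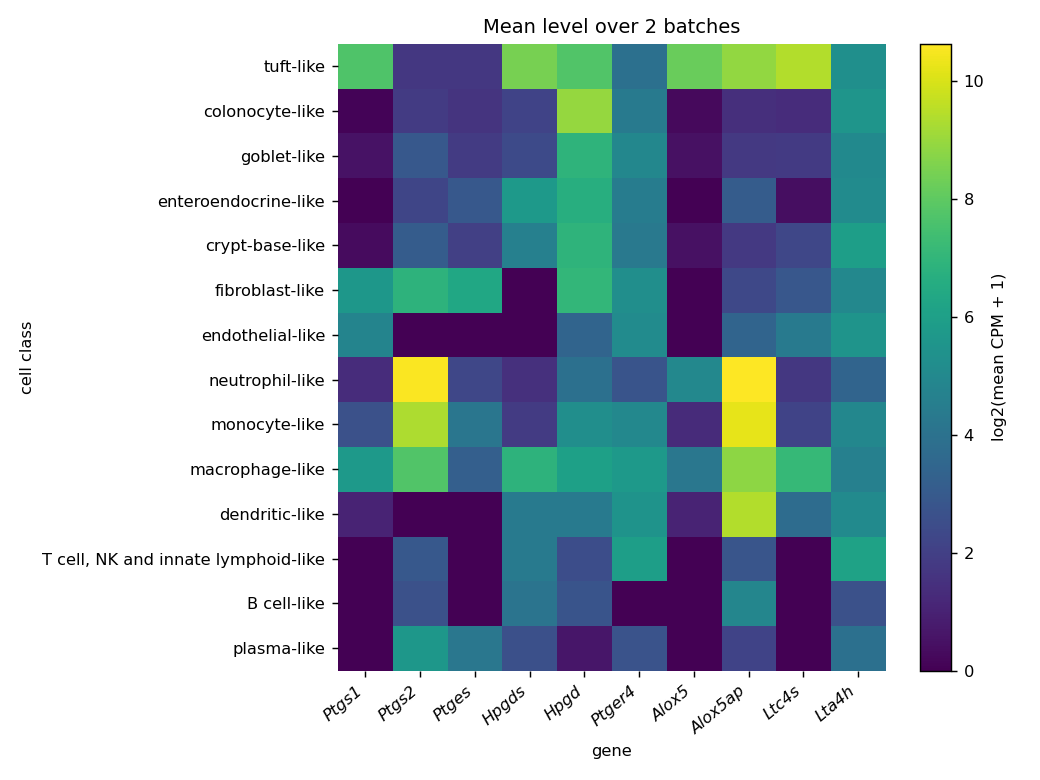
Heat map of the mean level over 2 batches, as log2(mean CPM + 1), of the 10 genes (columns) in each cell class (rows). Tuft-like cells are high for Ptgs1, Hpgds, Alox5, Alox5ap and Ltc4s, neutrophil-like cells for Ptgs2 and Alox5ap, and colonocyte-like cells for Hpgd.

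Ptgs1, the cyclooxygenase present at rest in many tissues, was at 207 and 201 CPM in tuft-like cells (204 ± 3.91, SD, n = 2 batches). It was at 45.3 and 57.7 CPM in macrophage-like and 48.0 and 49.0 in fibroblast-like cells. In neutrophil-like cells it was at 1.26 and 1.87 CPM and in colonocyte-like cells at 0.162 and 0. Both tuft sums thus stood above every sum of the other 4 classes. The tuft level was higher than in macrophage-like cells by 1.68 ± 0.33 log2 units (SE; adjusted p = 1.10e-04) and higher than in fibroblast-like cells by 1.90 ± 0.33 (adjusted p = 2.11e-05). Fibroblast-like and macrophage-like cells, neighbours in the order of levels, differed by -0.23 ± 0.35 (adjusted p = 0.701). Here and below, the SE of a log2 difference was worked back from edgeR's test, as the difference divided by the square root of its F statistic. It is thus not a separate estimate of spread. Among classes outside the pairwise tests, endothelial-like cells (11 and 20 cells) had 34.0 and 19.6 CPM, from 1 UMI in each batch. Their 95% Poisson intervals, 0.86 to 189 and 0.496 to 109 CPM, were too wide to place them against macrophage-like or fibroblast-like cells.

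Ptgs2, the cyclooxygenase induced by inflammatory signals, was at 1805 and 1218 CPM in neutrophil-like cells (1511 ± 415, SD, n = 2). Monocyte-like cells followed with 385 and 873 CPM, macrophage-like cells with 115 and 315, and fibroblast-like cells with 80.6 and 151. Colonocyte-like cells held 4.0 and 1.15 CPM, and the tuft-like cells held 2 Ptgs2 UMIs in all, 1.54 and 3.14 CPM. Neutrophil-like sums did not overlap those of any other class tested. They were 4.25 ± 0.62 log2 units above macrophage-like cells (adjusted p = 1.06e-06) and fibroblast-like against neutrophil-like cells gave -5.21 ± 0.65 (adjusted p = 2.95e-08). Fibroblast-like and macrophage-like cells overlapped and differed by -0.97 ± 0.57 (adjusted p = 0.227). Tuft-like cells gave -5.88 against fibroblast-like (adjusted p = 7.09e-05) and -6.85 against macrophage-like cells (adjusted p = 3.22e-06). With classes from clusters, which took in cells that the gate had set aside, these became -1.68 (adjusted p = 0.193) and -1.25 (adjusted p = 0.486). Empty droplets also carried Ptgs2, at 56.7 and 97.7 CPM of the free RNA, more than in tuft-like or colonocyte-like cells. After thinning every cell to 2000 UMIs, 77.4% and 62.1% of neutrophil-like cells held a Ptgs2 UMI (80.1% and 68.9% unthinned), against 0% and 1.44% of T, NK and innate lymphoid-like cells, a class that served as background.

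A scaling choice touches every value that involves neutrophil-like cells. Neutrophil markers made up 164208 and 195078 CPM of these cells, and edgeR's TMM scaling moves the median gene back toward 0. Without it, the median of all genes shifted by 1.58 in tuft against neutrophil and by -1.10 in neutrophil against macrophage comparisons. Fitted differences with neutrophil-like cells are therefore relative to the typical gene, and are not the ratio of the CPM values printed beside them: on CPM, Ptgs2 was 7.04 times as high in neutrophil-like as in macrophage-like cells.

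Ptges, which converts prostaglandin H2 to prostaglandin E2, was at 88.3 and 72.1 CPM in fibroblast-like cells (80.2 ± 11.4, SD, n = 2). Macrophage-like cells had 3.23 and 13.2 CPM, neutrophil-like cells 3.78 and 3.73, and tuft-like cells 4.63 and 0, from 3 UMIs. Fibroblast-like cells stood apart from all 4 other tested classes. Their level was 3.00 ± 0.48 log2 units above macrophage-like cells (adjusted p = 7.60e-06), 2.94 ± 0.46 above neutrophil-like cells (adjusted p = 2.54e-06) and 4.86 above colonocyte-like cells (adjusted p = 3.66e-12). Tuft-like and macrophage-like cells differed by -1.84 (adjusted p = 0.134), with very few UMIs on the tuft side. In the same fibroblast-like cells, 15 and 35 cells held a Ptgs2 UMI, 30 and 74 a Ptges UMI, and 3 and 15 of 109 and 268 cells held both.

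Hpgds, the hematopoietic prostaglandin D2 synthase, was at 319 and 374 CPM in tuft-like cells (347 ± 38.7, SD, n = 2) and at 113 and 118 in macrophage-like cells. No Hpgds UMI was seen in fibroblast-like cells of either batch. The tuft level exceeded the macrophage level by 1.26 ± 0.26 (adjusted p = 1.80e-04), and by 1.06 (adjusted p = 0.157) with classes from clusters. Against the level that 3 UMIs over the class would give in fibroblast-like cells, 1.51 CPM, Hpgds was at least 224-fold higher in tuft-like cells and at least 77.2-fold higher in macrophage-like cells. Enteroendocrine-like cells (42.2 and 62.7 CPM) and crypt-base-like cells (22.5 and 25.3 CPM) held intermediate levels. Mast and basophil-like cells, summed in batch 2 only (19 cells), held Hpgds at 156 CPM, from 12 UMIs, above the macrophage values.

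Hpgd, the dehydrogenase that inactivates prostaglandin E2, was at 494 and 489 CPM in colonocyte-like cells (491 ± 3.73, SD, n = 2). Tuft-like cells had 190 and 239 CPM, fibroblast-like cells 109 and 146, macrophage-like cells 72.8 and 54.6, and neutrophil-like cells 17.7 and 10.5. The order was the same in both batches and the sums of neighbouring classes did not overlap. Against colonocyte-like cells, tuft-like cells gave -1.78 ± 0.38 (adjusted p = 3.96e-04) and fibroblast-like cells -2.29 ± 0.38 (adjusted p = 3.74e-06). Neighbours lower in the order did not separate in the test: tuft against fibroblast gave 0.51 (adjusted p = 0.36), fibroblast against macrophage 0.93 (adjusted p = 0.0962) and neutrophil against macrophage -0.86 (adjusted p = 0.146). Free RNA carried Hpgd at 164 and 175 CPM, a level above the fibroblast, macrophage and neutrophil values. In thinned cells a Hpgd UMI was found in 48.6% (95% exact binomial interval 46.2 to 50.9) and 48.8% (46.2 to 51.4) of colonocyte-like cells, against 1.56% and 1.44% of lymphoid-like cells.

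Ptger4 encodes the prostaglandin E2 receptor EP4. Its highest class was T, NK and innate lymphoid-like cells at 83.6 and 36.9 CPM, a spread wide enough to overlap macrophage-like (38.8 and 63.8), dendritic-like (43.2 and 42.4) and fibroblast-like cells (42.2 and 32.7). Colonocyte-like cells held 18.8 and 21.2 CPM, tuft-like cells 9.26 and 18.9, and neutrophil-like cells 5.89 and 5.60. Macrophage-like cells stood 1.12 ± 0.34 log2 units above colonocyte-like cells (adjusted p = 0.00595), while fibroblast-like and macrophage-like cells differed by -0.67 (adjusted p = 0.22). The tuft-to-fibroblast difference of -1.65 (adjusted p = 0.0225) did not pass without a scaling factor (-1.48, adjusted p = 0.0544), with classes from clusters (-1.03, adjusted p = 0.157) or in tagged cells alone (-1.90, adjusted p = 0.0568). Free RNA held 19 and 20.8 CPM of Ptger4, close to the colonocyte values.

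**Figure D2:**
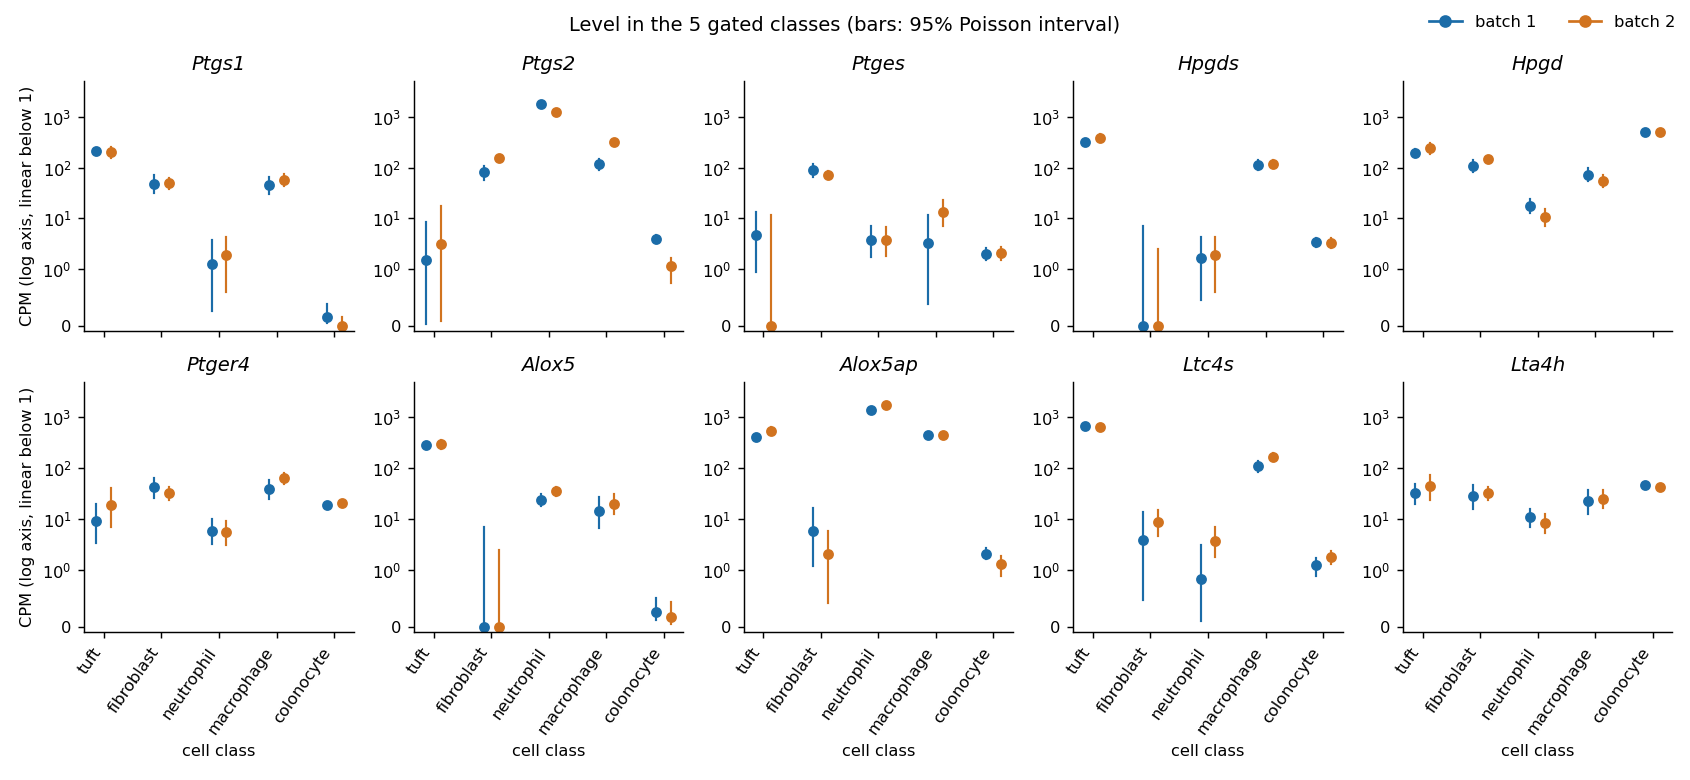
Level of each of the 10 genes in the 5 gated classes, with batch 1 and batch 2 as separate points, 95% Poisson intervals as bars and a CPM axis that is linear below 1 and logarithmic above. Ptgs2 is highest in both neutrophil-like sums (1805 and 1218 CPM) and Ltc4s in both tuft-like sums (677 and 651 CPM).

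The leukotriene arm divided between cell types. Alox5, which encodes 5-lipoxygenase, was at 284 and 299 CPM in tuft-like cells (291 ± 10.5, SD, n = 2). Neutrophil-like cells had 24.0 and 35.5 CPM and macrophage-like cells 14.6 and 20.2. Tuft-like cells were thus highest in both batches, 1.66 ± 0.30 above neutrophil-like cells (adjusted p = 4.72e-05) and 3.73 ± 0.37 above macrophage-like cells (adjusted p = 2.85e-09). Neutrophil-like cells exceeded macrophage-like cells by 2.07 ± 0.39 (adjusted p = 8.56e-05), but this fell to 0.74 (adjusted p = 0.139) without a scaling factor and to 0.75 (adjusted p = 0.444) with classes from clusters. No Alox5 UMI was seen in fibroblast-like cells, against which the tuft level was at least 192-fold higher.

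Alox5ap encodes FLAP, the membrane protein that presents arachidonic acid to 5-lipoxygenase. It was at 1377 and 1767 CPM in neutrophil-like cells (1572 ± 275, SD, n = 2), 1149 and 1224 in monocyte-like cells and 556 and 783 in dendritic-like cells. Tuft-like cells had 412 and 550 CPM and macrophage-like cells 446 and 456, and these sums overlapped. Tuft-like and macrophage-like cells differed by -0.24 ± 0.37 (adjusted p = 0.68). Neutrophil-like cells were 3.11 ± 0.39 above macrophage-like cells (adjusted p = 4.66e-08) on the TMM scale and 3.48 times as high on CPM. Fibroblast-like (5.76 and 2.04 CPM) and colonocyte-like cells (2.11 and 1.32 CPM) lay below the free RNA level of 56.5 and 113 CPM.

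Ltc4s, the leukotriene C4 synthase, was at 677 and 651 CPM in tuft-like cells (664 ± 18.7, SD, n = 2) and at 110 and 168 in macrophage-like cells. The difference was 1.96 ± 0.29 log2 units (adjusted p = 1.80e-06), and with classes from clusters it was 0.96 (adjusted p = 0.118). Neutrophil-like cells held a mean of 2.29 CPM, fibroblast-like cells 3.84 and 8.85. Lta4h, the hydrolase that makes leukotriene B4, had no such restriction. It was at 83.6 and 54.1 CPM in lymphoid-like cells, 55.1 and 66.4 in crypt-base-like cells, 46.2 and 43.6 in colonocyte-like cells and 32.4 and 44.0 in tuft-like cells. Neutrophil-like cells, at 10.9 and 8.59 CPM, held the lowest Lta4h level of the 5 main classes. On the TMM scale neutrophil-like and macrophage-like cells differed in Lta4h by 0.01 (adjusted p = 1.0), and without a scaling factor the difference reversed to -1.31 (adjusted p = 0.00893).

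Counted by class pair, with the share of all genes that passed in the same direction in parentheses, tuft-like cells were higher than fibroblast-like cells in 5 genes (17.1%) and lower in 3 (17.0%), or 8 in all (34.2%). Against neutrophil-like cells they were higher in 5 (19.6%) and lower in 2 (19.7%; 39.3% in all), against macrophage-like cells higher in 5 (18.5%) and lower in 2 (15.6%; 34.1% in all), and against colonocyte-like cells higher in 5 (11.9%) and lower in 1 (15.3%; 27.2% in all). The 5 higher genes against macrophage-like cells were Ptgs1, Hpgds, Hpgd, Alox5 and Ltc4s. With classes taken from clusters, where the macrophage class was the Cd163 cluster alone, 2 of the 10 genes passed in that pair, Ptgs1 and Alox5. Of all genes, 2527 of 14283 passed there. Macrophage-like cells were higher than colonocyte-like cells in 8 genes (21.6%) and lower in 2, Hpgd and Lta4h (24.7%; 46.3% in all). Neutrophil-like cells were higher in 6 (24.7%) and lower in 2 (26.8%; 51.5% in all) against colonocyte-like cells, and higher in 3 (23.2%) and lower in 4 (15.2%; 38.5% in all) against macrophage-like cells. Fibroblast-like cells were higher in 4 (25.2%) and lower in 4 (26.7%; 51.8% in all) against neutrophil-like cells. They were higher in 1, Ptges (16.0%), and lower in 4 (13.9%; 29.9% in all) against macrophage-like cells, and higher in 4 (25.6%) and lower in 3 (24.8%; 50.4% in all) against colonocyte-like cells. Without a scaling factor the higher and lower counts were 6 and 2 in tuft against neutrophil-like cells, beside 7593 and 1330 of all 14020 genes. They were 6 and 4 in fibroblast against neutrophil-like cells (all genes 7338 and 1685). In neutrophil against macrophage-like cells they were 2 and 6 (1258 and 5835), and in neutrophil against colonocyte-like cells 4 and 3 (2105 and 6849). The median log2 difference of the 10 genes was 3.06 in tuft against colonocyte-like cells, beside -0.16 over all genes, and -0.82 in fibroblast against macrophage-like cells, beside 0.08.

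Single tuft-like cells held these transcripts together. All 5 of Ptgs1, Hpgds, Alox5, Alox5ap and Ltc4s were detected in 33 of 79 cells in batch 1 and 15 of 43 in batch 2, and Hpgds with Ltc4s in 55 and 30. Thinned to 2000 UMIs, 61.6% and 69.4% of tuft-like cells held an Ltc4s UMI (79.7% and 83.7% unthinned) and 54.8% and 47.2% an Alox5 UMI (70.9% and 72.1%). No lymphoid-like cell held an Ltc4s or Alox5 UMI in thinned data. Macrophage-like cells shared part of this set, with Alox5ap and Ltc4s together in 20 of 115 and 29 of 139 cells. Ptgs1 and Hpgds were together in 10 and 16, and Hpgds and Alox5ap in 8 and 17. Counted singly, Alox5ap was in 67 and 76 of these cells, Ltc4s in 30 and 48, Hpgds in 34 and 44 and Ptgs1 in 19 and 36. Whether pairs met more often than these single counts would give was not tested. Shares depend on depth, and 6 and 7 tuft-like cells fell below 2000 UMIs and were left out of the thinned values.

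The fixed list of 48 other eicosanoid genes, of which 32 were tested between classes, showed which partners lay beside the 10 genes. In fibroblast-like cells Ptgis, the prostacyclin synthase, was at 155 and 188 CPM, against 0 and 0 in macrophage-like and 0.195 and 0.213 in colonocyte-like cells, and Ptgir, the prostacyclin receptor, was at 17.3 and 14.3. Macrophage-like cells carried Tbxas1, the thromboxane synthase, at 137 and 113 CPM (5.84 ± 0.37 above colonocyte-like cells, adjusted p = 1.35e-14) and Cysltr1, a cysteinyl leukotriene receptor, at 92.2 and 61.7. Neutrophil-like cells carried Ltb4r1, the high-affinity leukotriene B4 receptor, at 80.3 and 84.8 CPM, 3.87 ± 0.33 above macrophage-like cells (adjusted p = 2.98e-11). They also carried Cyp4f18, which inactivates leukotriene B4, at 201 and 187 CPM.

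Colonocyte-like cells carried Mgst3, a microsomal glutathione transferase, at 3721 and 3975 CPM, and tuft-like cells at 3113 and 2817, against 76.8 and 72.1 in fibroblast-like cells. Of the 5 classes, colonocyte-like cells held the highest levels of Cbr1, a carbonyl reductase that acts on prostaglandin E2, at 452 and 478 CPM, of the phospholipase Pla2g10 at 160 and 179, and of the prostaglandin transporter Slco2a1 at 67.4 and 85.1. Colonocyte-like cells thus combined Hpgd with Slco2a1, the uptake and breakdown genes. Within the 5 classes other lipoxygenases were near 0, the highest being Alox15 in tuft-like cells at 0 and 3.14 CPM. Per class pair, the list gave 5 higher and 8 lower genes in tuft against fibroblast-like cells, 6 and 6 against neutrophil-like, 8 and 10 against macrophage-like and 3 and 8 against colonocyte-like cells. It gave 8 and 7 in fibroblast against neutrophil-like, 8 and 7 against macrophage-like and 13 and 8 against colonocyte-like cells. For neutrophil against macrophage-like and colonocyte-like cells the counts were 9 and 7, then 9 and 12, and for macrophage against colonocyte-like cells 13 and 11. Without a scaling factor the list gave 13 and 3 in tuft against neutrophil-like, 17 and 3 in fibroblast against neutrophil-like, 4 and 10 in neutrophil against macrophage-like and 8 and 14 in neutrophil against colonocyte-like cells, so its direction there follows the scaling. For the scaled fits, the shares of all genes are those given above for the same pairs. For the fits without a scaling factor, the matching counts of all genes are also given above.

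Across 29 class-by-batch sums of 15 classes, the genes whose log2(CPM + 1) was most like each of the 10 were named by Pearson's r, as a description over sums that share libraries and depth. Ptgs2 was nearest to Slc7a11 (r = 0.948), Clec4e (0.906) and Hp (0.892). Hpgd was nearest to Sqor (0.901), Fblim1 (0.898) and Src (0.879). Alox5ap was near Sh2b2 (0.883) and Cfp (0.874), and Ptgs1 was nearest to Man2a1 (0.857), Col15a1 (0.801) and Cacnb4 (0.779). Ltc4s was nearest to Adam22 (0.803), Cacnb4 (0.784) and Gm43569 (0.776), and Ptges to Plppr3 (0.883), Atf5 (0.814) and Olfml3 (0.804). For Hpgds the genes were Gm10138 (0.825), Bub3 (0.787) and Mthfd1l (0.754), and for Alox5 Gm34589 (0.784), Fbxl21 (0.769) and P2rx1 (0.751). Ptger4 was nearest to Abraxas2 (0.825), Stard3nl (0.818) and Ncln (0.818), and Lta4h to Hras (0.862), Mocs2 (0.831) and Clpp (0.828).

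The tag comparisons asked whether these genes differed with DSS and with loss of JUP within a class. In colonocyte-like cells Ptgs2 was higher under TG_DSS than under Ctrl_DSS, and it was the only one of 56 gene tests in 10 tag contrasts to pass, in edgeR. Under Ctrl_WT no Ptgs2 UMI was found in 43 and 30 cells. Under Ctrl_DSS there were 1 and 2 UMIs in 59 and 125 cells, 0.616 and 0.798 CPM. Under TG_WT there were 27 and 0 UMIs in 132 and 76 cells, 12.3 and 0 CPM. Under TG_DSS there were 35 and 11 UMIs in 26 and 16 cells, 67.4 and 42.2 CPM, above every other sum.

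The difference between TG_DSS and Ctrl_DSS was 5.97 ± 1.02 log2 units (adjusted p = 0.0442, higher in 2 of 2 batches), and 0.385% of the 8842 genes tested passed in this contrast, 0.339% as higher. On summed UMIs the ratio was 109 in batch 1 (95% interval 18.4 to 4443) and 52.9 in batch 2 (11.5 to 491), counting error only. Against Ctrl_WT, with no UMI, the TG_DSS level was at least 26.9-fold higher on a floor of 3 UMIs over both batches. By name this contrast sets JUP-KO with DSS against wildtype with DSS, and by antibody number against untreated JUP-KO. The Ptgs2 call was lost with DESeq2 (adjusted p = 0.999), without the batch block (adjusted p = 0.149), without a scaling factor (adjusted p = 0.0866), with classes from clusters (adjusted p = 0.256), and when any of the 4 sums compared was left out. Those 4 values were 0.573 and 0.063 without Ctrl_DSS batch 1 or 2, and 0.364 and 0.246 without TG_DSS batch 1 or 2. Each leaves an arm with 1 sum, which is assumed to vary like the other groups. Under a stricter tag rule, by which a cell's highest tag, relative to its batch median, had to be at least 3 times the next, TG_DSS held 9 and 11 colonocyte-like cells. Batch 1 was then under the minimum of 10 cells, and the TG_DSS contrasts could not be fitted.

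Neutrophil markers were also highest under TG_DSS in these cells, although 1 marker on that list, Ly6g, was also a leading gene of a cluster of colonocyte-like cells. The neutrophil marker list summed to 1861 and 1258 CPM under TG_DSS, against 97.9 and 96.5 under Ctrl_DSS, 122 and 92.2 under Ctrl_WT, and 476 and 104 under TG_WT. All Ptgs2 UMIs under TG_DSS came from 5 and 2 cells, each of which also held a neutrophil marker above the gate's free RNA limit. Such a marker was held by 11 and 4 of the 26 and 16 cells in all. Without cells that held such a marker, TG_DSS colonocyte-like cells had 0 and 0 Ptgs2 UMIs, and 0 of the 4 genes still tested passed. The gate had already moved cells with clear leukocyte markers out of the class. Alox5ap, also high in neutrophil-like cells, followed the same pattern: 44.3 and 23.0 CPM under TG_DSS, 9.85 and 0.798 under Ctrl_DSS, 3.63 and 0.561 under TG_WT, and 0 and 0 under Ctrl_WT. Without the marker-bearing cells Alox5ap was at 15.2 and 5.22 CPM under TG_DSS, from 5 and 1 UMIs, and at 11.4 and 0.887 under Ctrl_DSS. The part of neutrophil RNA in the colonocyte Ptgs2 and Alox5ap values was not tested.

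**Figure D3:**
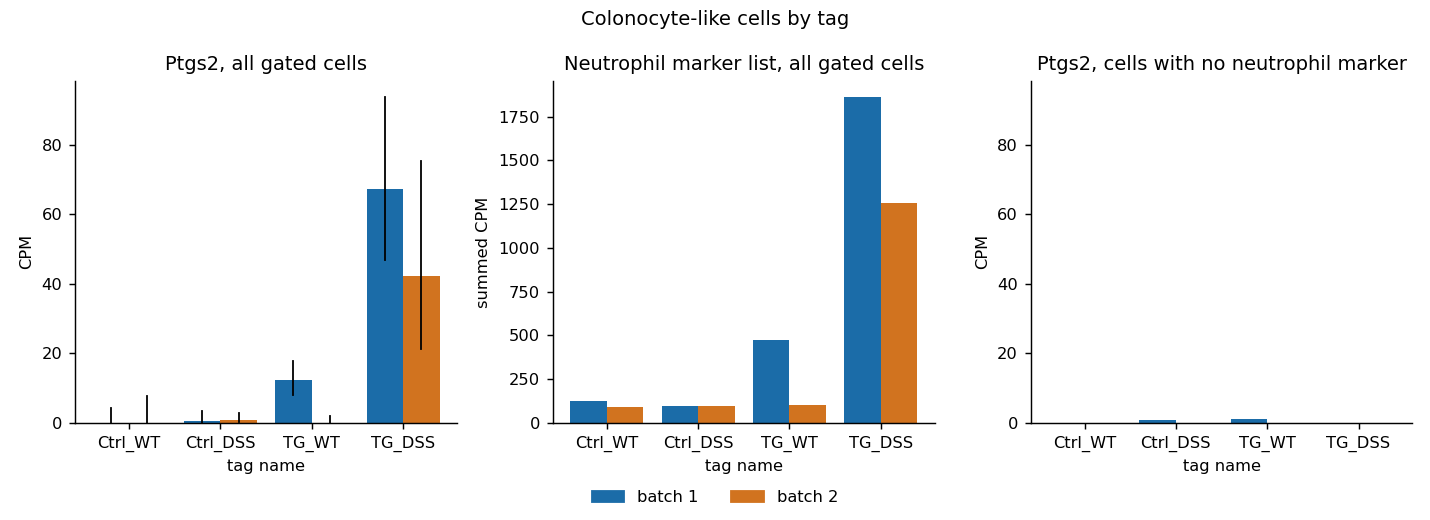
Colonocyte-like cells by tag and batch (bars), showing in CPM the level of Ptgs2 with 95% Poisson intervals as lines, the sum of the neutrophil marker list and Ptgs2 after cells with a neutrophil marker were left out. Ptgs2 and the marker list are both highest under TG_DSS (67.4 and 42.2 CPM, and 1861 and 1258 CPM), and Ptgs2 there is 0 once those cells are removed.

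Alox5ap did not pass in any colonocyte contrast with edgeR. Its difference was 4.02 ± 0.81 in TG_DSS against TG_WT (adjusted p = 0.25) and 2.96 ± 0.73 in TG_DSS against Ctrl_DSS (adjusted p = 0.256). Leaving out either Ctrl_WT sum brought the first of these past the threshold (adjusted p = 0.0292 and 0.0356). Ptgs2 in TG_DSS against TG_WT gave 3.32 ± 0.78 (adjusted p = 0.537), and 8.69 (adjusted p = 0.0244) without the TG_WT sum of batch 1, which held all 27 UMIs of that tag. The remaining TG_WT sum, with 0 UMIs, is there assumed to vary like the other groups.

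Hpgd in colonocyte-like cells was at 568 and 780 CPM under Ctrl_WT, 336 and 556 under Ctrl_DSS, 408 and 463 under TG_WT, and 358 and 503 under TG_DSS. Within each batch the Ctrl_WT sum was the highest. The tags also differed in cluster make-up: the cluster with the highest Hpgd held 37.2% and 40% of the Ctrl_WT cells, 8.47% and 23.2% under Ctrl_DSS, 20.5% and 17.1% under TG_WT, and 11.5% and 12.5% under TG_DSS, and the part of this in the Hpgd values was not tested. Against Ctrl_WT the differences were -0.65 ± 0.25 for Ctrl_DSS (adjusted p = 0.752), -0.54 ± 0.25 for TG_WT (adjusted p = 0.996) and -0.66 ± 0.26 for TG_DSS (adjusted p = 1.0), and these 3 contrasts share their control sums. Lta4h was at 43.8 and 50.3 CPM under Ctrl_WT, 51.1 and 47.9 under Ctrl_DSS, 46.7 and 51.0 under TG_WT, and 52.0 and 61.4 under TG_DSS. Ptger4 was at 18.0 and 6.29, 30.2 and 14.4, 13.6 and 12.9, and 15.4 and 19.2 CPM in the same order of tags. For both genes the batches of a tag spread as widely as the tags. Ptgs1, Ptges, Hpgds, Alox5 and Ltc4s were too low in colonocyte-like cells to be tested, with at most 13 UMIs in any sum.

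In edgeR, 0 of the 5 genes tested passed in Ctrl_DSS against Ctrl_WT (background 0.0452% of genes, 2 of the 5 genes at an unadjusted p under 0.05), in TG_WT against Ctrl_WT (0.0113%, 1 gene), in TG_DSS against TG_WT (0.0792%, 2 genes) and in TG_DSS against Ctrl_WT (0.181%, 3 genes). DESeq2 called 0 in the first 3 and 1, Alox5ap, in the last (6.79, adjusted p = 0.0312). Leaving out the Ctrl_DSS sum of batch 1, the Ctrl_WT sum of batch 2 or either TG_WT sum made Ptgs2 pass in TG_DSS against Ctrl_WT, and the last 3 of these also Alox5ap. The interaction of both factors, the same in both readings of the tags, gave 0 calls in edgeR and DESeq2 (0.0339% of genes, 0 of the 5 at an unadjusted p under 0.05). There Hpgd gave 0.53 (adjusted p = 0.989) and Lta4h 0.08 (adjusted p = 0.997). Of the other eicosanoid genes, 14 were tested in colonocyte-like cells and 0 passed in any contrast, in edgeR or DESeq2, with at most 1 at an unadjusted p under 0.05, Slco2a1.

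Within the colonocyte-like class, clusters spanned a wider range of Hpgd than tags did, given here as a description. The cluster led by Slc10a2, Slc51a and Prap1 held 882 and 718 CPM (343 and 246 cells). The cluster led by Clca4b, Cxcl5, Ccl20 and the neutrophil marker Ly6g held 110 and 180 CPM (183 and 80 cells). Another 4 clusters with at least 10 such cells in both batches lay between 434 and 553 CPM, and 5 clusters that reached 10 cells in batch 1 alone lay between 165 and 303 CPM. Cells of the low cluster were mostly untagged and made up at most 12.5% of the colonocyte-like cells of a tag and batch, so a tag difference within it was not tested.

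**Figure D4:**
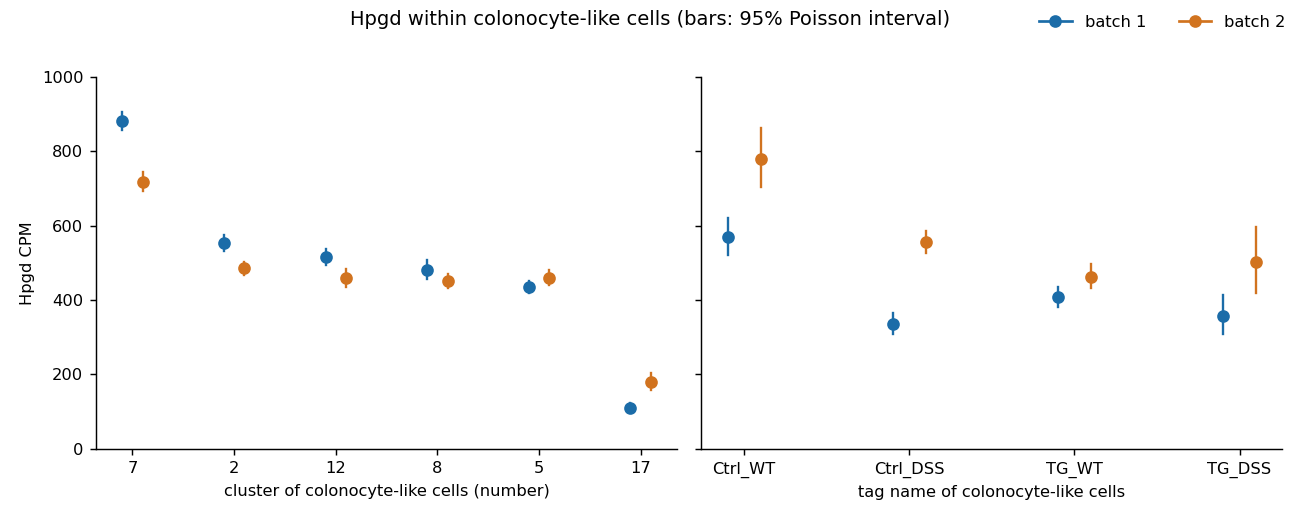
Hpgd level in CPM within colonocyte-like cells, by cluster and by tag, with batch 1 and batch 2 as separate points and 95% Poisson intervals as bars. Clusters span 110 to 882 CPM, while tags span 336 to 780 CPM.

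In macrophage-like cells, where Ctrl_DSS had enough cells in batch 2 only, Ptgs2 and Hpgd leaned in opposite directions without passing the test. Ptgs2 was at 42.1 and 0 CPM under Ctrl_WT (15 and 13 cells), 37.8 under Ctrl_DSS (21 cells), 23.6 and 583 under TG_WT (21 and 33 cells), and 182 and 284 under TG_DSS (62 and 67 cells). Both TG_DSS sums lay above both Ctrl_WT sums, while the TG_WT sums spread across the whole range. TG_DSS against Ctrl_WT gave 3.51 ± 1.21 (adjusted p = 0.452). Hpgd was at 126 and 118 CPM under Ctrl_WT, 139 under Ctrl_DSS, 70.7 and 16.2 under TG_WT, and 49.2 and 40.9 under TG_DSS. Its Ctrl_WT sums did not overlap those of TG_WT or TG_DSS, with differences of -1.67 ± 0.69 (adjusted p = 0.777) and -1.41 ± 0.63 (adjusted p = 0.67). Macrophage marker sums ran from 7366 to 14645 CPM over these groups. Cluster make-up also differed between these sums. The cluster led by Cd163 and Mrc1 had Hpgd at 218 and 143 CPM over all its cells. It held 46.7% and 23.1% of the macrophage-like cells under Ctrl_WT, 14.3% under Ctrl_DSS in batch 2, 14.3% and 3.03% under TG_WT, and 11.3% and 23.9% under TG_DSS. The shares under Ctrl_WT and TG_DSS were thus close in batch 2, where Hpgd was at 118 and 40.9 CPM. Most of the others (203 of the class) sat in a cluster named monocyte by its markers. Over all its cells, 521 of them monocyte-like, that cluster had Hpgd at 63.1 and 67.6 CPM. The part of these shares in the tag values was not tested.

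The cysteinyl and prostaglandin D2 genes of macrophage-like cells differed more between batches than between tags. Ltc4s was at 309 and 105 CPM under Ctrl_WT, 265 under Ctrl_DSS, 220 and 25.9 under TG_WT, and 43.4 and 239 under TG_DSS. Hpgds was at 98.2 and 52.4, 44.1, 291 and 77.8, and 63.6 and 186 CPM in that order. Ptgs1 was at 84.2 and 91.7, 37.8, 118 and 16.2, and 20.3 and 88.6 CPM. Under TG_WT these 3 genes were higher in batch 1, and under TG_DSS higher in batch 2, the same batches in which the Cd163 cluster held the larger share. Under Ctrl_WT its share was larger in batch 1, where Ltc4s and Hpgds were higher and Ptgs1 was lower. Ltc4s was at 218 and 634 CPM in the Cd163 cluster and at 38.7 and 32.0 in the monocyte cluster. These levels cover all cells of a cluster, and the monocyte cluster held 203 macrophage-like and 521 monocyte-like cells. The part of cluster make-up in the tag values was not tested. In edgeR, 0 of 7 genes passed in TG_WT against Ctrl_WT (0.0737% of 4070 genes, 2 of the 7 at an unadjusted p under 0.05), TG_DSS against TG_WT (0.0491%, 0 of the 7) and TG_DSS against Ctrl_WT (0.172%, 2 of the 7), and DESeq2 also called 0 in each. Ptgs2 passed in TG_DSS against Ctrl_WT without the Ctrl_WT sum of batch 1, the TG_DSS sum of batch 2, or either TG_WT sum, and in TG_WT against Ctrl_WT without the batch 1 sum of either tag. Ltc4s passed, as lower, in TG_DSS against Ctrl_WT without the TG_DSS sum of batch 2 (-3.02, adjusted p = 0.0177) and in TG_WT against Ctrl_WT without the TG_WT sum of batch 1 (-3.26, adjusted p = 0.0168). In each such fit that leaves a tag with 1 sum, that sum is assumed to vary like the other groups. Of the other eicosanoid genes, 0 of the 9 tested passed in edgeR or DESeq2 in any of the 3 contrasts, with 2, 0 and 1 at an unadjusted p under 0.05.

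Neutrophil-like cells could be compared only between TG_WT (14 and 270 cells) and TG_DSS (603 and 520 cells). Ptgs2 was at 2813 and 874 CPM under TG_WT and 1774 and 1391 under TG_DSS, so the groups overlapped (0.13 ± 0.36, adjusted p = 1.0). Alox5ap was at 879 and 1597 against 1390 and 1860 CPM, and Alox5 at 25.1 and 26.0 against 22.9 and 40.5 CPM. None of the 5 genes tested passed in edgeR or DESeq2 (0.123% of 5683 genes passed in edgeR), and 0 of the 5 had an unadjusted p under 0.05. Of the other eicosanoid genes, 0 of 11 passed in edgeR or DESeq2, and 1, Ltb4r1, had an unadjusted p under 0.05.

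**Figure D5:**
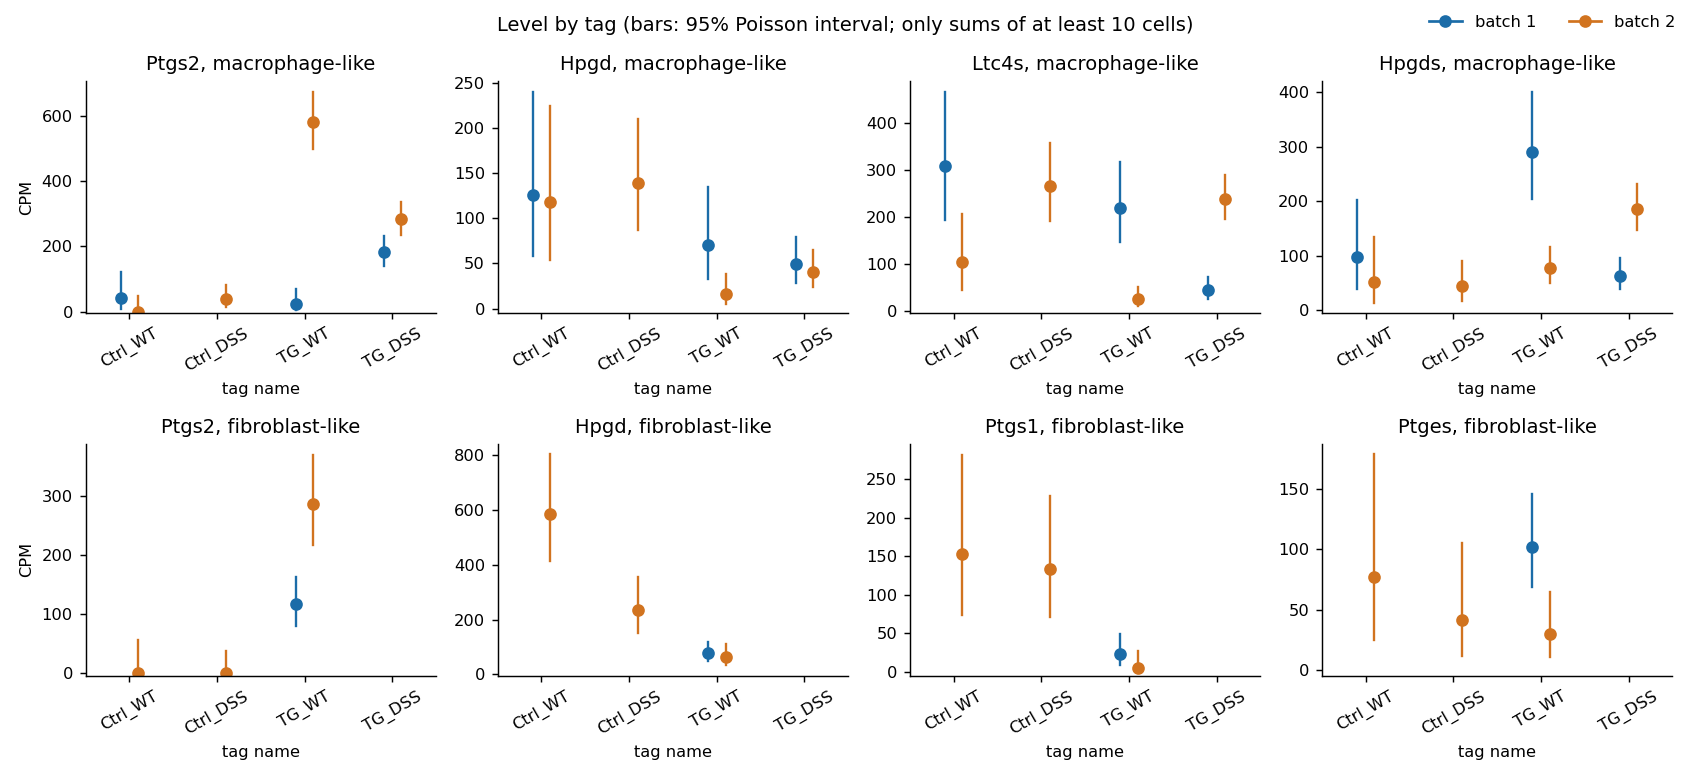
Levels in CPM by tag in macrophage-like cells (top) and fibroblast-like cells (bottom), for sums of at least 10 cells, with batch 1 and batch 2 as separate points and 95% Poisson intervals as bars. Macrophage Hpgd is at 126 and 118 CPM under Ctrl_WT and at 49.2 and 40.9 under TG_DSS, and fibroblast Ptgs2 is 0 in the Ctrl_WT and Ctrl_DSS sums.

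Fibroblast-like cells reached 10 cells under Ctrl_WT and Ctrl_DSS in batch 2 only, so no test was made and intervals cover counting error only. Ptgs2 was not seen under Ctrl_WT (10 cells, which allows up to 56.6 CPM) or Ctrl_DSS (16 cells, up to 37.9 CPM), and was at 116 (80.3 to 162) and 286 (217 to 370) CPM under TG_WT (59 and 35 cells). Ptgs1 lay the other way, at 153 (73.6 to 282) and 133 (71.1 to 228) CPM, against 23.9 and 4.93 under TG_WT. Hpgd was at 583 (413 to 801) CPM under Ctrl_WT, 236 (150 to 354) under Ctrl_DSS, and 78.4 (49.7 to 118) and 64.1 (34.1 to 110) under TG_WT. Ptges was at 76.7 and 41.1 CPM in the batch 2 sums, against 102 and 29.6 under TG_WT. The fibroblast clusters also differed, with levels taken over all cells of a cluster, including those the gate had set aside. The cluster led by Adamdec1, Cxcl13 and Bmp5 (26 and 74 cells) held Ptgs2 at 136 and 680 CPM and Ptgs1 at 113 and 83.0. Of its cells in both batches, 65 were fibroblast-like, 32 were of several classes and 3 of none. The cluster led by Dcn and Mfap5, with 310 fibroblast-like cells and 135 of several classes, held Ptgs2 at 41.7 and 131 and Ptgs1 at 29.1 and 29.2 CPM. The Adamdec1 cluster held 20% of the gated cells under Ctrl_WT and 6.25% under Ctrl_DSS in batch 2, against 8.47% and 34.3% under TG_WT. The part of these shares in the tag values was not tested.

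Tuft-like cells reached 10 cells in just 2 sums, Ctrl_DSS in batch 2 (10 cells) and TG_WT in batch 1 (11 cells), so tag and batch cannot be told apart. Ltc4s was at 467 and 487 CPM in them, Alox5 at 246 and 325, Hpgds at 221 and 325, Alox5ap at 450 and 368, and Ptgs1 at 110 and 238. All 5 genes were thus present in both sums.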

How the data were processed

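Measured were UMI counts per gene and barcode in 2 gene expression libraries of pooled, hashtagged mouse colon cells. The authors deposited raw counts for all barcodes, made with Cell Ranger 7.0.0 on mm10 per the submitters' processing notes, while the matrix header names version 4. Total UMIs were 133919905 in batch 1 and 95408149 in batch 2.

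Cells were called from the barcode knee (14000 expected cells) and a test against free RNA (barcodes of at most 100 UMIs, adjusted p of 0.01, at least 500 UMIs), giving 9995 and 9355. Cells under 250 genes or above 25% mitochondrial UMIs were dropped. Tags were assigned by a mixture model per tag. A class needed at least 3 markers above 10% free RNA (Poisson p of 0.01). Clusters came from 2000 variable genes, 30 components and Leiden resolution 1.0 (scanpy 1.11.5, Python 3.11.15). Cells with more than 1 tag were removed as doublets; untagged cells may still hold some.

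UMIs were summed per class and batch, or per class, tag and batch, with at least 10 cells. They were tested with edgeR 4.0.16 (quasi-likelihood, TMM, filterByExpr, batch as block, R 4.3.3) with Benjamini-Hochberg adjustment over all genes tested at 0.05. Alternatives were DESeq2 1.42.0, its size factors, no scaling, no filter, no block, clusters as classes, a mitochondrial limit of 10%, tagged cells only, a stricter tag rule (highest tag, relative to its batch median, at least 3 times the next), and each sum left out. The replicate number is the batch in which the labels say the 4 conditions were pooled, so it pairs the sums. In colonocyte-like cells the deviations of same-batch tag sums correlated at -0.08 to 0.41 over 6 pairs. The SE of an edgeR log2 difference is its size divided by the square root of the quasi-likelihood F statistic. The fits were tested on simulated counts. Intervals are 95%, exact Poisson for levels and exact binomial for shares, and cover counting error only, and the floor for a count of 0 is 3 UMIs.

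All 10 genes are named. Of the other eicosanoid genes, those with the highest level of their role and those past the test were eligible, and the text names a part of them. For likeness the 3 genes outside all lists with the highest r are named, except an item that is not reported here. The genes and lists were chosen with earlier results of these data known. Cells of no class or several classes entered no test.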

Additional observations from a re-analysis of the deposited data

Results flagged for a closer look

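Ptgs2 was also high in cells that no comparison used. A cluster that received no class name, whose leading genes included Ccr3, Unc5c, Alox15, Il4 and Serpinb2, held Ptgs2 at 2577 CPM in batch 1 (11 cells) and 1727 CPM in batch 2 (34 cells), above the 1805 and 1218 CPM of neutrophil-like cells in the same batches. It was flagged because the signal lay outside the classes compared. Of its cells, 7 of 11 and 28 of 34 carried the TG_DSS tag, and Alox5ap was at 387 and 1065 CPM.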

How the results depend on the processing

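Of 1000 alternative values for the fold changes between classes, 875 kept direction and side of the threshold, 25 lost the call, 14 gained it, 84 changed sign without a call or, with a batch left out and no test possible, moved by more than their SE, and 2 reversed. The reversals were Ptgs2 in tuft against colonocyte-like cells (4.20 with classes from clusters) and Lta4h in neutrophil against macrophage-like cells (-1.31 without a scaling factor). With classes from clusters, 2 members passed in tuft against macrophage-like cells (7 in the main analysis), beside 2527 of all genes (4786 in the main analysis). Other eicosanoid genes fell to 8 in tuft against fibroblast-like (13), 8 in tuft against macrophage-like (18) and 11 in macrophage against colonocyte-like cells (24). In tagged cells alone they were 11 in tuft against macrophage-like and 6 in tuft against colonocyte-like cells (11).

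Between tags, 728 of 829 values kept their call, 8 lost and 27 gained it, 66 changed sign without a call or moved untested, and 0 reversed. The single call among members, Ptgs2 in colonocyte-like cells under TG_DSS against Ctrl_DSS, became 0 calls with DESeq2, with no scaling factor, with no replicate block, with classes from clusters and without cells with a neutrophil marker (the last, and no scaling, were chosen after seeing the data). It became 2 with no filter. Under the stricter tag rule the TG_DSS colonocyte contrasts and the interaction could not be fitted. Without a replicate block no other member call changed. With no filter, members called in colonocyte-like cells were 1 in TG_WT against Ctrl_WT, 2 in TG_DSS against TG_WT and 2 in TG_DSS against Ctrl_WT, where DESeq2 gave 1. In macrophage-like cells no filter gave 1 in TG_WT and 1 in TG_DSS against Ctrl_WT. Leaving out each sum gave 0 to 1 members called in TG_DSS against Ctrl_DSS and in TG_DSS against TG_WT, and 0 to 2 in TG_DSS against Ctrl_WT, for colonocyte-like cells. It gave 0 to 2 in both macrophage contrasts against Ctrl_WT. The cause of these changes was not tested.

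Genes called between classes (main, then alternative) were 5504 and 8923 in tuft against neutrophil-like cells without scaling, 4786 and 2527 in tuft against macrophage-like and 4195 and 2790 in fibroblast against macrophage-like cells from clusters, and in tagged cells 4792 and 3073 (tuft against fibroblast), 3810 and 2085 (tuft against colonocyte) and 7062 and 4669 (fibroblast against colonocyte). Without scaling, higher and lower calls went from 2746 and 2758 to 7593 and 1330 (tuft against neutrophil), from 3531 and 3737 to 7338 and 1685 (fibroblast against neutrophil), from 3255 and 2138 to 1258 and 5835 (neutrophil against macrophage), from 3459 and 3758 to 2105 and 6849 (neutrophil against colonocyte), from 2595 and 2191 to 3390 and 1785 (tuft against macrophage), from 1665 and 2145 to 2926 and 1013 (tuft against colonocyte; 2044 and 1594 with DESeq2's size factors) and from 3584 and 3478 to 4480 and 2627 (fibroblast against colonocyte). Depth limits genes with few UMIs: a level below 3 UMIs per sum was not detectable.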

Other observations

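Ptgs2 by tag in other classes had no test, and is given as values. In goblet-like cells it was at 118 and 61.8 CPM under TG_DSS (15 and 11 cells), 0 and 85.3 under TG_WT, 0.757 and 1.59 under Ctrl_DSS, and 0 under Ctrl_WT in batch 1. The neutrophil marker list in the same sums was at 1806 and 3752 CPM under TG_DSS, 53.2 and 628 under TG_WT, 49.2 and 273 under Ctrl_DSS, and 32.0 under Ctrl_WT in batch 1. The part of neutrophil RNA in the goblet Ptgs2 values was not tested. In monocyte-like cells Ptgs2 was at 408 and 590 CPM under TG_DSS and 1081 under TG_WT in batch 2.

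A cluster led by Cd163 and Mrc1 (24 and 24 cells, of which 44 in all were macrophage-like) held Ltc4s at 218 and 634 CPM, Hpgds at 150 and 241 and Alox5 at 40.8 and 116. Each was above the level of the whole macrophage-like class in the same batch. Ptgs2 in that cluster was at 13.6 and 250 CPM. Mast and basophil-like cells, seen in number only in batch 2 (19 cells), held Alox5 at 104 CPM and Alox5ap at 1051 CPM.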
